A study of Mus musculus with 6 samples.

Results

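Transcripts of 45 genes of ribosome biogenesis and RNA polymerase I were examined in stimulated mouse CD4+ T cells cultured with itaconate. The genes were chosen by name from what their proteins do, with earlier results of these data already known. All 45 were found among the 55291 gene symbols of the table and among the 13170 genes tested. They were sorted by role into 7 genes of small nucleolar ribonucleoproteins (snoRNPs), 18 of small-subunit assembly, 11 of large-subunit assembly, 7 of RNA polymerase I and its regulators, and 2 abundant nucleolar proteins. CD4+ T cells, the helper lineage, came from the spleens of naive wild-type C57BL/6 mice and were labelled with CFSE, a dye that dilutes as cells divide. The 3 itaconate libraries came from cells given 5 mM itaconate, a dicarboxylate made by activated macrophages, and the 3 NaCl libraries from cells given 5 mM NaCl. All cells in both arms were stimulated for 48 h by antibodies to CD3 and CD28 with 200 U of IL-2. The table abbreviates its controls as NAC, which was taken to mean the NaCl arm, the single other treatment in the labels, and every comparison rests on that reading. Nothing in the labels ties replicates to different mice or cultures. The p-values therefore capture the variation among these 6 libraries, which could be technical.

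Ribosomes are built in the nucleolus. RNA polymerase I copies the ribosomal DNA into a long precursor, box C/D and box H/ACA snoRNPs methylate and pseudouridylate it, and separate sets of assembly factors cut, fold and export the small and the large subunit. T cells enlarge their nucleoli and make more ribosomes when they are activated, and many of these genes are known targets of the transcription factor MYC.

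Between 20074299 and 22755248 estimated reads were assigned to genes in the itaconate libraries, and between 21015690 and 24144999 in the NaCl libraries. The values given here are normalized estimated counts, as the authors deposited them, and they show each gene against the remainder of its library. Pan-T-cell and CD4 markers were high in all libraries, with a summed value of 57787 to 59817 in itaconate and 47193 to 53604 in NaCl libraries over 7 genes. Of those 7 genes 4 were higher and 1 lower with itaconate. The summed markers of CD8 T cells (308 to 365 in itaconate, 363 to 408 in NaCl) and of B cells (173 to 303 in itaconate, 224 to 304 in NaCl) were low. The macrophage and monocyte markers summed to 151 to 198 in itaconate and 56.1 to 90.5 in NaCl libraries, and of their 2 tested genes both were higher, while Lyz2, a lysozyme of those cells, lay between 0 and 2.04. Of 4 neutrophil genes, S100a8, S100a9 and Elane were at 0 throughout, and Ly6g had 15.0, 22.6 and 30.8 in itaconate libraries, against 46.9, 34.2 and 64.4 in NaCl libraries. Ly6g was lower in every itaconate library than in any NaCl library and did not pass the test. All 10 genes of a mitosis list were higher with itaconate. The part of these differences in the results on ribosome biogenesis was not tested.

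With itaconate, 11 of the 45 genes fell, 2 rose and 32 did not pass the test (limma, two-sided, Benjamini-Hochberg adjusted p under 0.05 over all tested genes). Of all tested genes 17.8% fell and 18.2% rose, so the 24.4% of the 45 genes that fell was not far from the background, whereas the 4.44% that rose was below it. The genes that fell were Imp4, Wdr3, Nop14, Wdr43, Ltv1 and Tsr1 of the small subunit, Pes1, Rrs1 and Noc3l of the large subunit, and Nop58 and Gar1 of the snoRNPs. Those that rose were Utp14a of the small subunit and Polr1e of RNA polymerase I. The median log2 fold change over the 45 genes was −0.18, against −0.00095 over all tested genes, and the largest single fall was 1.74-fold. The median of the 45 genes was −0.091 without itaconate replicate 2, −0.11 without NaCl replicate 1 and −0.28 without itaconate replicate 1. All 3 itaconate libraries lay below all 3 NaCl libraries for 13 of the 45 genes (28.9%), against 24.2% of all tested genes, and above them for 2 (4.44%), against 24.2%. In bulk RNA, fewer cells that carry a transcript and less of it per cell cannot be told apart. With itaconate replicate 2 left out 7 genes fell, as many as with NaCl replicate 1 left out, and the count of rising genes was 1 without itaconate replicate 1, itaconate replicate 2 or NaCl replicate 2. Of all 13170 tested genes 1748 fell without itaconate replicate 2 and 1946 without NaCl replicate 1. With replicate number as a block, 16 of the 45 genes fell and 2 rose, against 2780 and 2854 of all tested genes. Without itaconate replicate 1 these counts were 16 and 1, against 1992 and 1993. How far the 45 genes stood from the background therefore differed between fits.

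**Figure D1:**
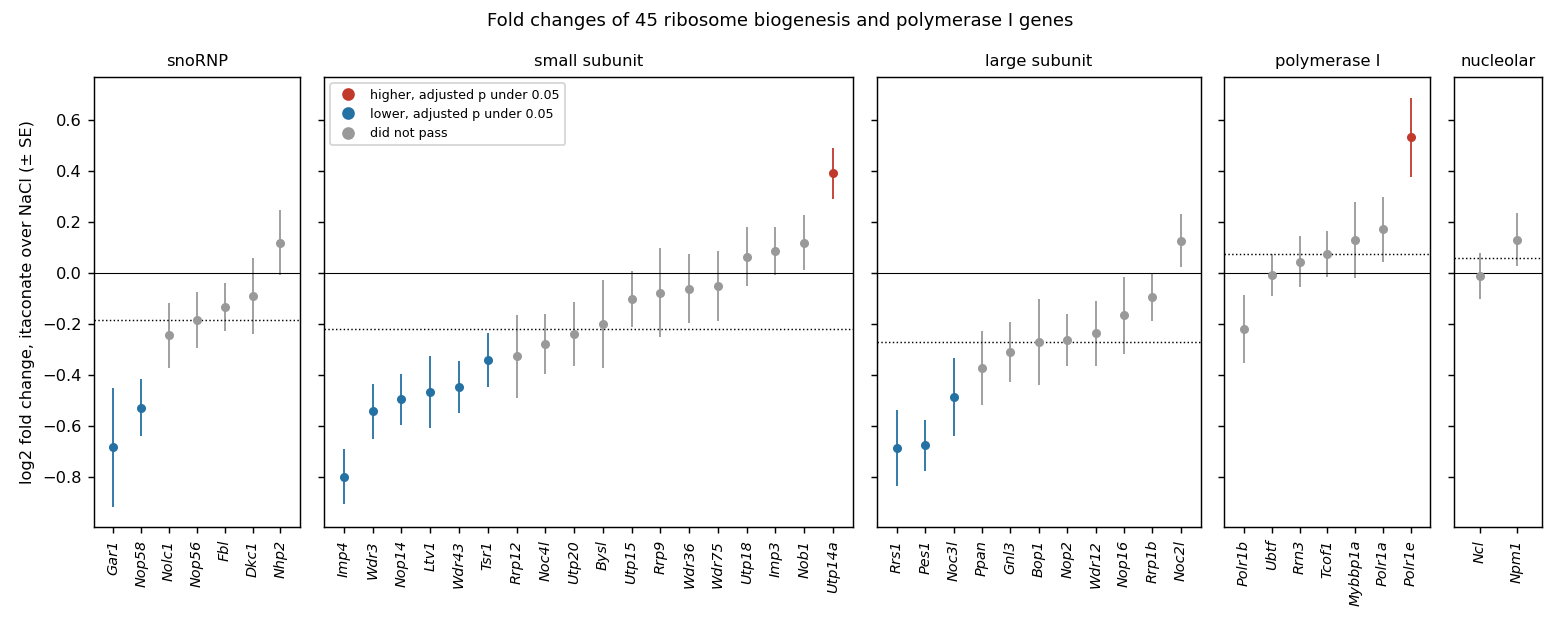
Log2 fold change of itaconate over NaCl for each of the 45 genes (points, with bars of 1 standard error, n = 3 libraries each), in panels by role, with a dotted line at each panel's median. Most points of the snoRNP and subunit panels lie below 0 (30 of 36), with Imp4 lowest at −0.80, while the polymerase I panel is centred near 0 and holds Polr1e at 0.53.

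Among the snoRNP genes 2 of 7 fell (28.6%) and 0 rose, with a median log2 fold change of −0.18. Of all tested genes 17.8% fell and 18.2% rose. Nop58, a core scaffold protein of box C/D snoRNPs, had values of 2136, 1828 and 1724 in itaconate libraries, against 3123, 2513 and 2576 in NaCl libraries. The groups did not overlap, and Nop58 fell 1.44-fold (limma adjusted p = 0.00285, with −0.53 ± 0.11 SE as the fitted log2 fold change). Gar1, a core protein of the box H/ACA particles that pseudouridylate RNA, had 542, 312 and 365 in itaconate libraries, against 857, 447 and 668 in NaCl libraries. Itaconate replicate 1 was above NaCl replicate 2, so the groups overlapped, and the change of Gar1 was −0.68 ± 0.23 SE on the log2 scale (limma adjusted p = 0.0372, range over alternatives 7.84e-04 to 0.16). Gar1 missed the threshold with itaconate replicate 2 left out (adjusted p = 0.16), and likewise without itaconate replicate 3 (0.0677), NaCl replicate 1 (0.154) or NaCl replicate 3 (0.108). Its call was lost in 8 of 16 alternatives. These included no filter (limma adjusted p = 0.0549), GC content and length trends removed (0.0538), no intensity trend (0.150) and robust variances (0.0750). The other 5 snoRNP genes did not pass, and their log2 fold changes ran from −0.24 for Nolc1, a chaperone of snoRNPs, to 0.12 for Nhp2, another box H/ACA core protein. Fbl, the methyltransferase fibrillarin, averaged 2538 ± 147 in itaconate and 2787 ± 232 in NaCl libraries (SD, n = 3 each), and Nop56, its fellow box C/D protein, 3022 ± 367 in itaconate and 3431 ± 407 in NaCl libraries. Dkc1, the pseudouridine synthase dyskerin, averaged 1282 ± 299 in itaconate and 1349 ± 168 in NaCl libraries.

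Of the 18 small-subunit genes 6 fell (33.3%), 1 rose (5.56%) and 11 did not pass, where 17.8% of all tested genes fell and 18.2% rose. Their median log2 fold change was −0.22. With 1 library left out this median came to −0.11 (without itaconate replicate 2) or −0.14 (without NaCl replicate 1). Imp4, a component of the U3 snoRNP that helps position U3 on the precursor, lies at chr1:34439851-34449356 (GRCm38) and had 686, 697 and 774 in itaconate libraries, against 1378, 1201 and 1176 in NaCl libraries. All itaconate values lay well below the lowest NaCl value, and Imp4 had the smallest p of the 45 genes (log2 fold change −0.80 ± 0.11 SE, limma adjusted p = 1.43e-04). Wdr3, a WD-repeat protein of the UTP-B module of the processome that assembles on the nascent precursor, had 854, 806 and 977 in itaconate libraries, against 1340.0, 1272 and 1218 in NaCl libraries. Nop14, which works with the NOC4L protein in small-subunit maturation, had 1291, 1128 and 1304 in itaconate libraries, against 1884, 1658 and 1705 in NaCl libraries. Both were lower in every itaconate library than in any NaCl library, with log2 fold changes of −0.54 ± 0.11 SE for Wdr3 (limma adjusted p = 0.00190) and −0.496 ± 0.10 SE for Nop14 (limma adjusted p = 0.00222). Wdr43, a UTP-A protein that also binds the ribosomal DNA, had 1875, 1499.5 and 1668 in itaconate libraries, against 2412, 2247 and 2196 in NaCl libraries. Its groups did not overlap either, and its log2 fold change was −0.45 ± 0.10 SE (limma adjusted p = 0.00424).

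The other 2 small-subunit genes that fell were Ltv1 and Tsr1. Ltv1, an export and assembly factor of the pre-40S particle, had 781, 739 and 645 in itaconate libraries, against 1216, 960.4 and 839.6 in NaCl libraries. The groups did not overlap, but NaCl replicate 1 stood above the other NaCl libraries (log2 fold change −0.47 ± 0.14 SE, limma adjusted p = 0.0206, range over alternatives 0.00278 to 0.0939). Ltv1 missed the threshold with itaconate replicate 2 left out (adjusted p = 0.0528), and likewise without itaconate replicate 3 (0.0541), NaCl replicate 1 (0.0939) or NaCl replicate 2 (0.0512). Tsr1, a GTPase-like factor of the pre-40S particle, averaged 1448 ± 179 in itaconate and 1825 ± 95.0 in NaCl libraries (SD, n = 3 each), with a log2 fold change of −0.34 ± 0.11 SE (limma adjusted p = 0.0243, range over alternatives 0.00539 to 0.0933). Tsr1, named although 6 genes of its group had smaller p, missed the threshold with itaconate replicate 2 left out (adjusted p = 0.0848), and likewise without itaconate replicate 3 (0.0743), NaCl replicate 1 (0.0813) or NaCl replicate 2 (0.0638). Ltv1 and Tsr1 each lost their call in 6 of 16 alternatives, also with GC content and length trends removed or without an intensity trend. Of the exonic bases of Tsr1, 32.3% lie under exons of Srr on the opposite strand, and whether the authors counted reads by strand is not given in the sources used here.

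Utp14a, which in yeast recruits the helicase Dhr1 to the processome, was the only small-subunit gene of the 18 that rose. It lies at chrX:48256862-48282453 and had 2965, 2997 and 2445 in itaconate libraries, against 2244, 2100.5 and 2044 in NaCl libraries. Every itaconate value was above every NaCl value, and the fitted rise was 1.31-fold (log2 fold change 0.39 ± 0.099 SE, limma adjusted p = 0.00848, range over alternatives 0.00142 to 0.0522). Without itaconate replicate 2 it narrowly missed the threshold (adjusted p = 0.0511). Of the exonic bases of Utp14a, 11.5% lie under exons on the opposite strand, with 9530027J09Rik as the most overlapping gene. Of its 31-base sequences 16.9% also occur in transcripts of other genes. The 11 small-subunit genes that did not pass had log2 fold changes from −0.33 (Rrp12, a pre-ribosome export factor) to 0.12 (Nob1, the endonuclease that makes the final cut of 18S rRNA). Noc4l was nearest to the threshold among them, with 878, 681 and 839.6 in itaconate libraries, against 972, 937 and 985 in NaCl libraries. Its groups did not overlap, with a log2 fold change of −0.28 ± 0.12 SE (limma adjusted p = 0.0827). The others were Utp20, Bysl, Utp15, Rrp9, Wdr36, Wdr75, Utp18 and Imp3, with log2 fold changes between −0.24 for Utp20 and 0.088 for Imp3. For Wdr3 and Noc2l, 16.2% and 20.9% of exonic bases lie under exons of Spag17 and Samd11 on the opposite strand.

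Of the 11 large-subunit genes 3 fell (27.3%), 0 rose and 8 did not pass, and the median log2 fold change was −0.27. Over all tested genes 17.8% fell and 18.2% rose. Pes1, or pescadillo, is the subunit that with Bop1 and Wdr12 forms the PeBoW complex of pre-60S maturation. It lies at chr11:3963975-3980004 and had 1632, 1313 and 1476 in itaconate libraries, against 2268, 2414 and 2355 in NaCl libraries. The groups were far apart (log2 fold change −0.68 ± 0.099 SE, 1.60-fold lower on the scale of the fit, limma adjusted p = 2.45e-04). Of its 31-base sequences 36.5% also occur in transcripts of other genes, so RSEM may have divided its reads with them. Rrs1, which in yeast brings the 5S ribonucleoprotein into the pre-60S particle, had 432, 389.9 and 479 in itaconate libraries, against 757, 568 and 786 in NaCl libraries. NaCl replicate 2 was the lowest control and was still above all itaconate libraries (log2 fold change −0.69 ± 0.15 SE, limma adjusted p = 0.00324). Noc3l, a partner of the NOC2L protein in pre-60S transport, had 358, 301 and 349 in itaconate libraries, against 552, 475 and 396 in NaCl libraries. Its log2 fold change was −0.49 ± 0.15 SE (limma adjusted p = 0.0255, range over alternatives 0.0138 to 0.111), and it missed the threshold with itaconate replicate 2 left out (adjusted p = 0.104), and likewise without NaCl replicate 1 (0.111) or NaCl replicate 2 (0.0760).

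Among the large-subunit genes that did not pass, 3 had an unadjusted p under 0.05. Gnl3, the nucleolar GTPase nucleostemin, had 1163.5, 1009.7 and 886 in itaconate libraries, against 1367, 1210.5 and 1199 in NaCl libraries, and Nop2, an rRNA methyltransferase, 1044, 922 and 959 in itaconate libraries, against 1217, 1111 and 1178 in NaCl libraries. Both were lower in each itaconate library than in any NaCl library, at log2 fold changes of −0.31 ± 0.12 SE for Gnl3 (limma adjusted p = 0.0560) and −0.26 ± 0.10 SE for Nop2 (limma adjusted p = 0.0586). Ppan, a factor of the pre-60S particle, had 1044, 849 and 946 in itaconate libraries, against 1329.8, 954 and 1430.5 in NaCl libraries, with overlap between the groups (−0.37 ± 0.15 SE, limma adjusted p = 0.0645). Without NaCl replicate 2 its adjusted p was 0.00931, and without itaconate replicate 1 it was 0.0478 (range over alternatives 0.00931 to 0.245). Gnl3 passed without itaconate replicate 1 (adjusted p = 0.0199, range over alternatives 0.0144 to 0.175), as did Bop1 (0.0405, range 0.0405 to 0.718) and, outside the large subunit, Rrp12 (0.00763, range 0.00763 to 0.502) and Nolc1 (0.0197, range 0.0197 to 0.541). The remaining genes were Wdr12 (−0.24), Nop16 (−0.17), Rrp1b (−0.095) and Noc2l (0.13) on the log2 scale.

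RNA polymerase I and its regulators stood at a median log2 fold change of 0.075, with 1 of 7 genes higher (14.3%), 0 lower and 6 not passing. The background over all tested genes was 18.2% higher and 17.8% lower. Polr1e, the PAF53 subunit of polymerase I, lies at chr4:45018583-45036565 and had 361, 286 and 303 in itaconate libraries, against 215, 214 and 223 in NaCl libraries. The NaCl libraries lay close together and all itaconate libraries were above them (log2 fold change 0.53 ± 0.16 SE, 1.45-fold, limma adjusted p = 0.0179, range over alternatives 0.00623 to 0.0784). Polr1e missed the threshold with itaconate replicate 1 left out (adjusted p = 0.0784), and likewise without NaCl replicate 2 (0.0534). Polr1b, the second largest catalytic subunit, had 521, 401 and 449 in itaconate libraries, against 537, 504 and 547 in NaCl libraries, and itaconate replicate 1 lay within the NaCl range (−0.22 ± 0.13 SE, limma adjusted p = 0.218). Polr1a, the largest subunit, had 1525, 1099.9 and 1130.0 in itaconate libraries, against 1096, 1149 and 1051 in NaCl libraries. Here itaconate replicate 1 alone was above the controls, and likewise for Mybbp1a, a nucleolar regulator of rRNA synthesis, with 4366, 2836 and 2760 in itaconate libraries, against 3265, 2731 and 2931 in NaCl libraries.

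Ubtf, Rrn3 and Tcof1, which act with polymerase I at the ribosomal DNA, did not pass. Ubtf, the upstream binding factor of the ribosomal DNA promoter, averaged 2867 ± 22.7 in itaconate and 2883 ± 134 in NaCl libraries (SD, n = 3 each), a log2 fold change of −0.0070 ± 0.082 SE (limma adjusted p = 0.956). Rrn3, or TIF-IA, which joins the polymerase to its promoter complex and is a known target of growth signalling, averaged 1064 ± 25.6 in itaconate and 1033 ± 64.2 in NaCl libraries (log2 fold change 0.045 ± 0.099 SE, limma adjusted p = 0.759). Tcof1, the treacle protein that binds UBF and polymerase I, averaged 5371 ± 551 in itaconate and 5086 ± 228 in NaCl libraries (0.075 ± 0.091 SE, limma adjusted p = 0.555).

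The abundant nucleolar transcripts Ncl and Npm1 did not pass either. Ncl, nucleolin, had 36386, 37580.2 and 32850.2 in itaconate libraries, against 37544, 37012 and 33132 in NaCl libraries. Npm1, nucleophosmin, had 60220.3, 60577 and 50083 in itaconate libraries, against 53842, 54341 and 47511.5 in NaCl libraries. Replicate 3 was the lowest of both groups for both genes, and the groups overlapped (log2 fold changes −0.012 ± 0.091 SE for Ncl and 0.13 ± 0.10 SE for Npm1, limma adjusted p = 0.934 and 0.347). Per kilobase of the longest coding transcript, Npm1 stood at 34881 in itaconate and 31781 in NaCl libraries and Ncl at 4341 in itaconate and 4376 in NaCl libraries. These were the highest of the 45 levels on that scale in both groups, followed by Fbl at 2121 in itaconate and 2328 in NaCl libraries. The scale rests on the longest transcript, of 8202 bases for Ncl and 1633 for Npm1, and which transcripts were present was not examined. Of the 31-base sequences of Npm1 35.9%, of Fbl 77.3% and of Nop56 32.8% also occur in transcripts of other genes, so the values of these 3 genes are uncertain where RSEM divided reads.

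**Figure D2:**
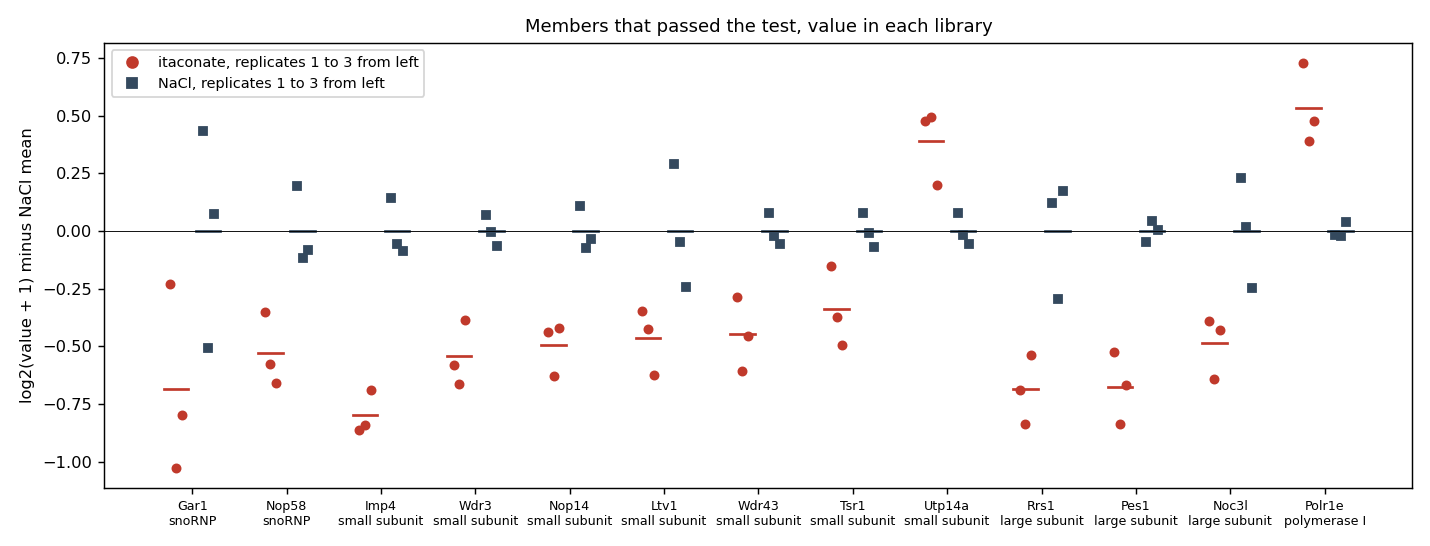
Value of each of the 13 genes that passed the test in each library, as log2(value + 1) minus the mean of the NaCl libraries, with itaconate as circles left of NaCl as squares and a line at each group's mean (n = 3 each). Of the 13 genes, Gar1 has overlapping groups, and Utp14a and Polr1e lie above their controls.

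Transcripts were also set against those of partner proteins. Of 10 complexes that hold members, 15 pairs of partners were compared as the log2 ratio of the 2 transcripts in each library, set to a NaCl mean of 0. The partners were chosen after the fold changes were seen, so a difference was built into most pairs, and the ratios are a description with no test. The ratio of Imp4 to Imp3, which bind the U3 snoRNA with each other, was −0.93, −0.96 and −0.77 in itaconate libraries, against 0.061, 0.039 and −0.10 in NaCl libraries. Imp3 itself averaged 1383 ± 24.1 in itaconate and 1303 ± 79.7 in NaCl libraries (SD, n = 3 each). The ratio of Noc3l to Noc2l was −0.70, −0.56 and −0.58 in itaconate libraries, against 0.19, 0.033 and −0.23 in NaCl libraries. In both pairs the groups were well apart, since the value of one partner was lower while that of the other was slightly higher.

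Within box C/D particles the ratio of Nop58 to Nop56 was −0.36, −0.26 and −0.41 in itaconate libraries, against 0.016, 0.040 and −0.056 in NaCl libraries, and that of Nop58 to Fbl also did not overlap between the groups. In the UTP-A module of the processome the ratio of Wdr43 to Wdr75 was −0.53, −0.399 and −0.26 in itaconate libraries, against −0.067, 0.0094 and 0.057 in NaCl libraries. In UTP-B the ratio of Wdr3 to Utp18 was −0.79, −0.71 and −0.32 in itaconate libraries, against −0.052, 0.040 and 0.012 in NaCl libraries. The ratios within PeBoW overlapped: that of Pes1 to Bop1 was −0.61, −0.20 and −0.399 in itaconate libraries, against −0.29, 0.16 and 0.13 in NaCl libraries. The groups also overlapped for Pes1 with Wdr12 and for Wdr3 with Wdr36.

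**Figure D3:**
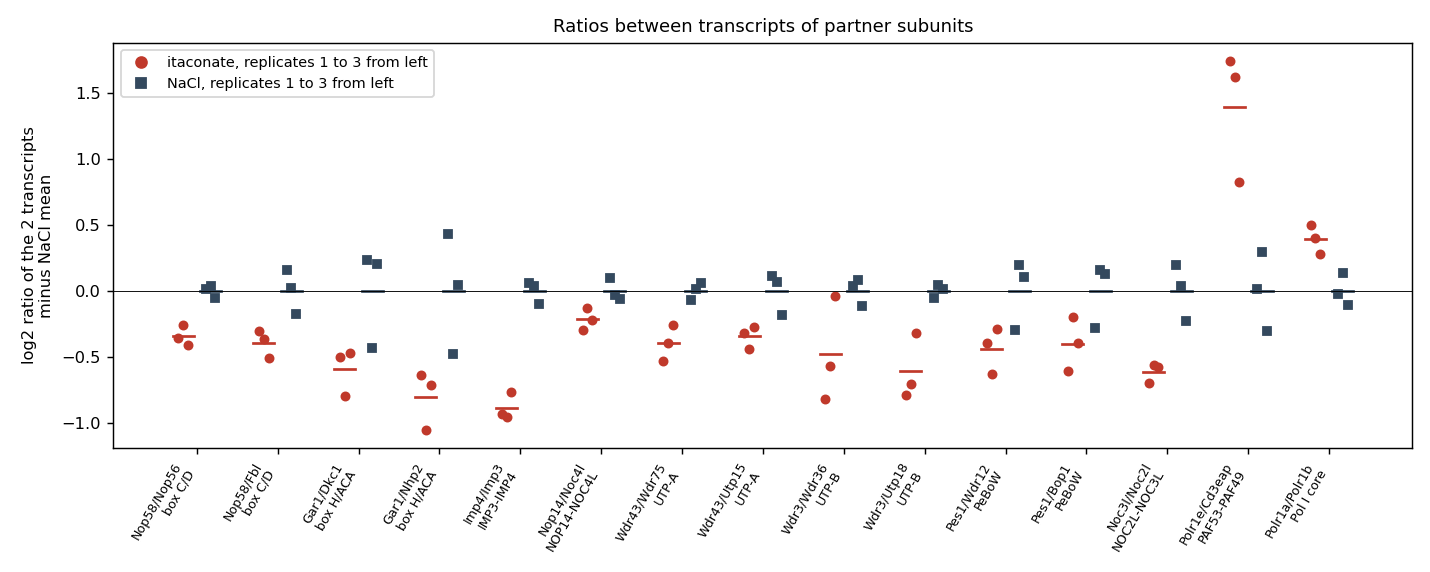
Log2 ratio between the transcripts of 2 partner subunits in each library, minus the mean of the NaCl libraries, for 15 pairs (circles left for itaconate, squares right for NaCl, lines at group means, n = 3 each). The ratio of Imp4 to Imp3 lies between −0.96 and −0.77 in itaconate libraries, and that of Polr1e to Cd3eap is the farthest above 0.

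The spread between libraries was shared by most of the 45 genes. Itaconate replicate 1 had the highest value of its group for 37 of the 45 genes, and NaCl replicate 1 the highest of its group for 31. This order was not counted over all tested genes. Their median log2 value, relative to the NaCl mean, was 0.0020 to 0.0087 in itaconate and 0.0021 to 0.0038 in NaCl libraries. The median of the small-subunit genes, relative to the NaCl mean on the log2 scale, was 0.043, −0.36 and −0.27 in itaconate libraries, against 0.095, −0.052 and −0.045 in NaCl libraries. For the large-subunit genes it was −0.13, −0.34 and −0.37 in itaconate libraries, against 0.12, −0.072 and −0.011 in NaCl libraries. Itaconate replicate 1 therefore lay within the NaCl range for the small-subunit median and below it for the large-subunit median. The snoRNP median was 0.010, −0.31 and −0.27 in itaconate libraries, against 0.18, −0.12 and −0.025 in NaCl libraries, and the polymerase I median 0.24, 0.0023 and −0.0098 in itaconate libraries, against 0.022, −0.057 and −0.012 in NaCl libraries. The median of the mitosis list was 1.27, 1.02 and 0.52 in itaconate libraries, against 0.13, −0.064 and −0.097 in NaCl libraries. Replicate 1 was thus the highest of each group for that list as well, and its part in the ribosome biogenesis values was not tested. Without itaconate replicate 1, the median log2 fold change was −0.32 for the small subunit, −0.41 for the large subunit, −0.28 for the snoRNPs and −0.0076 for polymerase I. Without itaconate replicate 2 it was −0.11 for the small subunit, −0.25 for the large subunit, −0.11 for the snoRNPs and 0.10 for polymerase I. With NaCl replicate 1 left out it was −0.14 for the small subunit, −0.23 for the large subunit, −0.11 for the snoRNPs and 0.11 for polymerase I.

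**Figure D4:**
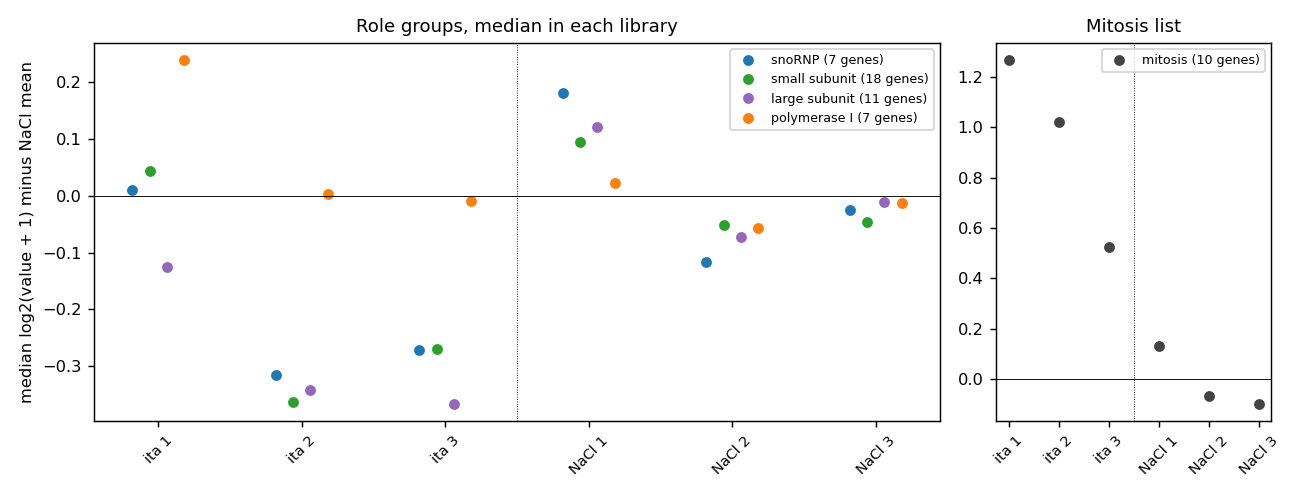
Median of log2(value + 1) minus the NaCl mean over the genes of each role, by library (left, itaconate libraries before NaCl libraries), and the same for the 10 genes of the mitosis list (right, on its own axis). Itaconate replicates 2 and 3 lie at −0.27 or lower for the snoRNP and both subunit groups, while itaconate replicate 1 lies between −0.13 and 0.043.

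Other genes of the pathway were listed by the same roles, also with earlier results of these data known, and 122 of them were tested. Of these 31 fell (25.4%) and 5 rose (4.10%), against 17.8% and 18.2% of all tested genes. Of 35 other small-subunit genes 8 fell and 0 rose, with a median log2 fold change of −0.22. Riok1, an atypical kinase of late pre-40S particles, had 1317, 1416 and 1571 in itaconate libraries, against 2454, 2218 and 2239 in NaCl libraries, with no overlap (−0.69 ± 0.098 SE, limma adjusted p = 1.94e-04). The processome genes Utp3 and Nol10 changed by −0.48 ± 0.10 SE and −0.52 ± 0.12 SE on the log2 scale (limma adjusted p = 0.00284 and 0.00465). Of 44 other large-subunit genes 11 fell and 1 rose, with a median of −0.21. Sdad1, which in yeast acts in pre-60S export, had 869.8, 771 and 776 in itaconate libraries, against 1732, 1763 and 1549 in NaCl libraries. All its itaconate values were below all its NaCl values, a 2.09-fold fall on the scale of the fit (−1.06 ± 0.10 SE, limma adjusted p = 1.30e-05). The nucleolar protein gene Surf6 and Eif6, the factor that keeps the subunits from joining, changed by −0.58 ± 0.12 SE and −0.59 ± 0.12 SE on the log2 scale. The gene that rose was Rbm28, a nucleolar RNA-binding protein, at 2650 ± 457 in itaconate and 1817 ± 180.3 in NaCl libraries (SD, n = 3 each; 0.53 ± 0.13 SE, limma adjusted p = 0.00533).

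Of 10 other snoRNP genes 3 fell and 0 rose, with a median of −0.23, where 17.8% of all tested genes fell and 18.2% rose. Naf1, an assembly factor of H/ACA particles, had 342, 371 and 438 in itaconate libraries, against 507, 608 and 583 in NaCl libraries, with no overlap (−0.56 ± 0.14 SE, limma adjusted p = 0.00739). Pih1d1 and Ruvbl2, of the R2TP chaperone that assembles box C/D particles, changed by −0.43 ± 0.13 SE and −0.34 ± 0.11 SE on the log2 scale (limma adjusted p = 0.0211 and 0.0357). Of the exonic bases of Ruvbl2, 15.4% lie under exons on the opposite strand, with Gys1 as the most overlapping gene. Of 13 tested genes of the nuclear exosome, which trims the precursors, 3 fell and 0 rose, with a median of −0.12. Exosc8 had 1597, 1604 and 1549.8 in itaconate libraries, against 2105, 2155 and 2070.5 in NaCl libraries, with no overlap (−0.41 ± 0.085 SE, limma adjusted p = 0.00245), and Exosc3 and Exosc5 changed by −0.52 ± 0.11 SE and −0.39 ± 0.14 SE. Calls were lost with 1 library left out for Pih1d1 (4 of 6 omissions, largest adjusted p = 0.0831 without itaconate replicate 1), Ruvbl2 (5 of 6, 0.151 without itaconate replicate 2) and Exosc5 (5 of 6, 0.181 without itaconate replicate 2).

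The list of other polymerase I genes, which holds subunits, some shared with other polymerases, and regulators, moved in both directions. Of its 20 genes 6 were lower and 4 higher (Baz2a, Polr2e, Polr1c and Taf1c), with a median of −0.022. These are 30% lower and 20% higher, against 17.8% and 18.2% of all tested genes. Over all 13 subunits of polymerase I, 3 rose (Polr1e, Polr1c and Polr2e), 3 fell (Cd3eap, Polr2k and Twistnb) and 7 did not pass. Cd3eap encodes PAF49, which forms a heterodimer with the PAF53 protein of Polr1e, and is named here after its values were seen. It had 115, 98.8 and 183 in itaconate libraries, against 228, 187 and 297 in NaCl libraries. All itaconate values were lower (−0.86 ± 0.25 SE, limma adjusted p = 0.0170), and the log2 ratio of Polr1e to Cd3eap was 1.74, 1.62 and 0.83 in itaconate libraries, against 0.014, 0.29 and −0.31 in NaCl libraries. Without NaCl replicate 3 or itaconate replicate 2 the adjusted p of Cd3eap was 0.0895 or 0.0793 (range over alternatives 0.00187 to 0.0895), and 4.3% of its exonic bases lie under exons of Ercc1 on the opposite strand. Of the SL1 factor that selects the ribosomal DNA promoter, Taf1b fell (−0.57 ± 0.11 SE, limma adjusted p = 0.00211) and Taf1a fell with a p close to the threshold (−0.58 ± 0.21 SE, limma adjusted p = 0.0498), while Taf1c rose (0.39 ± 0.14 SE, limma adjusted p = 0.0445). Of the exonic bases of Taf1c, 16.7% lie under exons on the opposite strand, with Dnaaf1 as the most overlapping gene. Polr2k, a subunit shared by all 3 nuclear RNA polymerases, changed by −0.62 ± 0.17 SE (limma adjusted p = 0.0144). Of the 31-base sequences of Polr2k, 27.3% also occur in transcripts of other genes.

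Several of these calls were lost with 1 library left out. Polr2k missed the threshold without NaCl replicate 1 (adjusted p = 0.0646) or NaCl replicate 3 (0.0522), Twistnb without NaCl replicate 1 (0.0717) or itaconate replicate 2 (0.0596), and Baz2a without itaconate replicate 2 (0.0914) or NaCl replicate 1 (0.0673). Polr1c and Polr2e missed it in 4 of 6 omissions each (largest adjusted p = 0.138 without NaCl replicate 3 and 0.0962 without NaCl replicate 2), and Taf1a and Taf1c in 5 of 6 each (0.155 without itaconate replicate 2 and 0.133 without itaconate replicate 3). Cavin1, also called PTRF, is best known as a coat protein of caveolae and was listed for its reported role in releasing polymerase I transcripts. It had low values of 23.4, 4.30 and 11.3 in itaconate libraries, against 58.1, 89.4 and 85.3 in NaCl libraries, with all itaconate values below the NaCl values (−2.73 ± 0.52 SE on the log2(value + 1) scale, limma adjusted p = 0.00157).

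Promoter sequence was read for 38 of the 45 genes, from 250 bases before to 50 after each RefSeq start (GRCm38.p6), and 3 motifs were searched on both strands. The E-box CACGTG, the site bound by MYC with MAX, was in 21.3% of the 47 windows of these genes, against 7.15% of all 32851 promoter windows and 9.93% of those of tested genes. The ETS motif CCGGAAG was in 29.8%, against 8.86% of all windows and 2241 of the 12458 windows of tested genes, and the palindromic NRF1 motif in 0 of 47, against 0.971% of all windows. By gene, the E-box was found in 5 of the 10 genes that fell and had a promoter (Imp4, Ltv1, Pes1, Tsr1 and Wdr43). It was in 0 of the 2 that rose and in 5 of the 26 that did not pass (Mybbp1a, Nop2, Rrn3, Utp18 and Utp20). Gar1, Noc3l, Nop14, Nop58 and Wdr3 fell and lacked it in their windows. The ETS motif was found in 5 of the 10 that fell, 1 of the 2 that rose and 7 of the 26 that did not pass. A match is a stretch of letters and not a measured binding site, and this split was made with the values known. The windows are shown for 3 genes that fell and hold the E-box, and for Imp3 and Polr1e, a partner that did not pass and a gene that rose, which lack it. These windows were picked with the calls known, so the match of E-box and call among them was built in. Capitals mark the E-box, and each sequence runs 5′ to 3′ on the strand of its gene.
Imp4 (chr1:34439579-34439878, plus strand): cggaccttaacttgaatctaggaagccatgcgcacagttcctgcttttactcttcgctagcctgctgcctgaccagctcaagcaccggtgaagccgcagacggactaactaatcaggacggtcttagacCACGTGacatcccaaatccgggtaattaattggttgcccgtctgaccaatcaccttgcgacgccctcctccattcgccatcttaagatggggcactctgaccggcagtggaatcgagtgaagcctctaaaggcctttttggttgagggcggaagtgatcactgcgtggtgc
Pes1 (chr11:3963725-3964024, plus strand): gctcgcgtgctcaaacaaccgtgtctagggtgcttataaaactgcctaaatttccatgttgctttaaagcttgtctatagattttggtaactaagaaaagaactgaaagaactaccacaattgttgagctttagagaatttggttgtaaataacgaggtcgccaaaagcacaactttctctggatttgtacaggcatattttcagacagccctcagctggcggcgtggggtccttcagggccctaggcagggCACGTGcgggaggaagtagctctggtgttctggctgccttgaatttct
Wdr43 (chr17:71615965-71616264, plus strand): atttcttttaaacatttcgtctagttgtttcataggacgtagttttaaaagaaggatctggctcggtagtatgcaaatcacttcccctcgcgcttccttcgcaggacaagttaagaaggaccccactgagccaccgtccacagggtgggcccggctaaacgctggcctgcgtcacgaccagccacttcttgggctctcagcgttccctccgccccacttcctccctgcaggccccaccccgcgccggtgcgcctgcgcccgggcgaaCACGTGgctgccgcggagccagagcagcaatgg
Imp3 (chr9:56937250-56937549, plus strand): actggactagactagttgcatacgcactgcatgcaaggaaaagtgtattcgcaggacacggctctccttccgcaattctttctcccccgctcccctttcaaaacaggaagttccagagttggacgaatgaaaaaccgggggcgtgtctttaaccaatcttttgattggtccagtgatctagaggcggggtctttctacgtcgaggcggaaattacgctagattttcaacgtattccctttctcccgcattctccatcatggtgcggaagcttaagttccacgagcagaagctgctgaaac
Polr1e (chr4:45018359-45018658, plus strand): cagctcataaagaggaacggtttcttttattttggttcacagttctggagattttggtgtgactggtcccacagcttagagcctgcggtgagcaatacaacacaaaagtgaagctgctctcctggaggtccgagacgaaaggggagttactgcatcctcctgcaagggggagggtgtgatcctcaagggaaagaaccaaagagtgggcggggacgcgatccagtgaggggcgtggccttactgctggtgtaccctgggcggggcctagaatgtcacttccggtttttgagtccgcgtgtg
The E-box begins 121 bases before the start in Imp4, at base 3 after it in Pes1 and at base 18 after it in Wdr43, so its place in the window differed between the 3 genes.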

How the data were processed

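Bulk RNA-seq was done on CD4+ T cells with itaconate (3 libraries) or NaCl (3 libraries), grouped by title. The deposited table holds normalized estimated counts for each symbol, used as a signal of 0 or more. STAR 2.7.0f, RSEM 1.3.0 and mm10 are named in the submitters' processing notes. The sources used here do not give the annotation, the strand setting or how size factors were found. Steps in the low values gave each library's size factor and estimated total. Between 80.0% and 82.2% of values above 0 were whole reads within 0.02, so count models were not used.

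Where 107 symbols had more than 1 entry, that of the highest mean was used. Genes with a mean of at least 10 (13170) were fitted as log2(value + 1) in R 4.3.3 by limma 3.58.1 (intensity trend, two-sided), adjusted by Benjamini-Hochberg over all of them at 0.05. Fold changes are on that scale and understate low genes. The fit was tested on simulated data. Replicates differed by more than sampling noise (chi-square per degree of freedom 12.9 to 25.8). GENCODE M21 (GRCm38) gave positions, lengths, exon overlap and shared 31-base sequences, and RefSeq (GRCm38.p6) the promoters. The members, lists and alternatives were chosen with earlier results of these data known. Members that passed were named, at most 6 by smallest p in a role group or at least 2 where fewer passed, with up to 3 genes of each related list. Tsr1, the partners and the other genes of polymerase I were named beyond that rule. Alternatives were other pseudocounts, filters, scalings, variance models, a replicate block and leaving out each library.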

Additional observations from a re-analysis of the deposited data

How the results depend on the processing

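Of 720 values of the 45 genes under 16 alternatives, 650 kept direction and side of the threshold, 28 lost their call, 19 gained one and 23 changed sign. Of the 13 genes that passed, none changed sign in any of the 16, and 7 (Imp4, Nop14, Nop58, Pes1, Rrs1, Wdr3 and Wdr43) passed in all 16. The share of all tested genes that passed in all 16 was not counted, so no background stands beside these 7. Leaving out a library gave 7 to 16 falling genes and 1 to 2 rising ones, and a large-subunit median of −0.41 to −0.23, where the main value is −0.27. Over all 13170 tested genes the same omissions gave 1748 to 2540 falling and 1730 to 2460 rising genes. The median with 1 library left out ran from −0.28 to −0.091 over the 45 genes, −0.32 to −0.11 for the small subunit, −0.28 to −0.11 for the snoRNPs and −0.0076 to 0.13 for polymerase I. In limma without an intensity trend 7 fell and 1 rose, against 1822 and 1829 of all tested genes. Gar1, Ltv1, Noc3l, Tsr1 and Utp14a lost their calls in that fit. With the replicate block 16 fell and 2 rose, against 2780 and 2854 of all tested genes, and Nop56, Noc4l, Gnl3, Nop2 and Ppan gained a call. Replicate numbers were not taken as pairs: the correlations of same-numbered deviations were 0.147, 0.038 and 0.13, although each library correlated best with its own number. Removing GC content and length trends gave 10 falling genes and 3 rising genes, the latter including Npm1 (0.24). Of the 12953 genes in that fit 2213 fell and 2730 rose. Values that changed sign passed in neither fit, and the cause was not tested. With 1 library left out these ranged from −0.27 to 0.025 for Dkc1, −0.027 to 0.22 for Nhp2, −0.28 to 0.041 for Rrp9, −0.0098 to 0.13 for Utp18, −0.22 to 0.078 for Wdr36, −0.20 to 0.029 for Wdr75, −0.33 to 0.011 for Bysl, −0.045 to 0.020 for Ubtf, −0.0013 to 0.088 for Rrn3, −0.0076 to 0.13 for Tcof1, −0.085 to 0.25 for Mybbp1a and −0.069 to 0.045 for Ncl. With GC content and length trends removed they were Wdr75 (0.025), Tcof1 (−0.058) and Ncl (0.059). The lowest of the 45 genes by its NaCl mean, Polr1e, had values of 286 to 361 in itaconate and 214 to 223 in NaCl libraries, and 3 libraries per group limit the precision.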
